A study of Mus musculus with 8 samples.

Results

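The course of messenger RNA loss after transcription was blocked is described here for mouse P19 embryonal carcinoma cells that received a control siRNA. P19 is a single established line of pluripotent tumour cells. The genes described are those with a mean of 5 FPKM or more over the 4 control conditions, 8056 of the 23284 genes in the table. FPKM counts fragments per kilobase of transcript, scaled to the number of mapped fragments. On either side of this limit lie Fam57b and Wdr53, both at a mean of 4.99 and left out, and Prkx and Ube2j2, both at 5.0 and kept in.

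Actinomycin D was added to the cultures 24 h after transfection, and RNA was taken 0, 15, 105 and 225 min later from cells with the control siRNA and from cells with an siRNA against Upf3a. All 8 conditions therefore received an siRNA and the drug, and no untransfected or undrugged cells are in the series. Upf3a was at 13.6, 14.0, 14.0 and 15.0 FPKM in control cells and at 5.27, 4.52, 4.76 and 4.16 FPKM in knockdown cells, so the arms did not overlap. The labels list 2 cultures for each condition, but the table holds 1 value per condition, so the spread between cultures cannot be seen. Embryonal carcinoma identity was visible in the values: Pou5f1, the pluripotency factor Oct4, stood at 1490, 1391, 1962 and 2790 FPKM at the 4 times, and 9 of 10 identity markers were among the 8056 genes. None of 8 extraembryonic endoderm markers reached this level, as against 2 of 8 neural, 2 of 9 fibroblast and smooth muscle and 1 of 4 cardiac markers. The neural markers that did were Tubb3, at 46.4, 43.7, 56.6 and 64.7 FPKM, and Elavl3, at 7.80, 9.23, 8.93 and 10.9 FPKM, while Neurog1 stayed below 0.2 FPKM. The summed FPKM over the 4 times was 57.3, 56.2, 68.0 and 77.7 for the neural list, 6.85, 7.36, 4.80 and 3.60 for the endoderm list and 2214, 2108, 2657 and 3482 for the identity list; the part of other cell types in the results was not tested.

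Actinomycin D intercalates into DNA and stops RNA polymerases, so that what remains of a transcript at later times reflects its removal. In mammalian cells, short-lived messages often encode signalling regulators and transcription factors, whereas messages for ribosomes, respiration and the cytoskeleton are often long-lived. Adenylate- and uridylate-rich elements and Pumilio sites in the 3′ UTR recruit deadenylation and decay factors, while exon junctions in the coding region are a feature often associated with stable messages. FPKM values are relative within each library and no outside standard was added. A gene that "fell" is thus read as lost faster than the typical (median) gene, whose level stayed nearly unchanged on this scale. A gene that "rose" is read as lost more slowly than the typical gene. Both readings assume that no RNA was made after the drug was added, which was not tested. Courses with early increases, such as those of Scand1 and Ier3 given below, may not follow them.

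To show what the steepest falls share in sequence, 30-base windows of 3′ UTRs that hold the AU-rich heptamer TATTTAT (sense strand only, DNA letters, capitals) are printed for the 8 of the 15 genes with the lowest slopes whose 3′ UTR holds it. The sequences are from the mouse genome build GRCm38 and run 5′ to 3′ on the strand of the gene. The windows lie at chr10:61424943-61424972 (plus strand) for Nodal, chr3:145647092-145647121 (minus) for Cyr61, chr11:53777103-53777132 (plus) for Irf1 and chr10:21999635-21999664 (plus) for Sgk1. Those of the other genes are chr17:26506158-26506187 (minus) for Dusp1, chr15:96687930-96687959 (minus) for Slc38a2, chr17:35822481-35822510 (plus) for Ier3 and chr4:132458826-132458855 (minus) for Med18.
Nodal: atatatatatgTATTTATttttgatgccat
Cyr61: gaatgttttttTATTTATcaaagtgtagct
Irf1: gcctttgcattTATTTATatagtgccttgc
Sgk1: aaaacgggcatTATTTATgttttttttccc
Dusp1: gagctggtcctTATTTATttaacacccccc
Slc38a2: aactgtactgtTATTTATagagcagcatta
Ier3: tgtctaattaaTATTTATgtatttatgtat
Med18: ttttattccttTATTTATttgttgttttct
The heptamer occurs in 26.8% of the 19509 annotated 3′ UTRs, so its presence in any one of these is a description and not a site.

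For each gene a straight line was fitted to log2(FPKM + 1) against hours (limma, Benjamini-Hochberg adjusted p below 0.05 over the 11453 genes with a mean of 1 FPKM or more). The slope, in log2 units per hour, is the measure of relative stability used throughout, and the p-value sets it against the scatter of the 4 times about the line, not against the spread between cultures. Of the 8056 genes, 2258 (28.0%) fell, against 32.6% of all genes tested. In the other direction 3272 (40.6%) rose, against 33.3% of all genes tested, and 2526 did not pass. The median slope was 0.04 per hour for these genes and 0.01 for all genes tested. Slopes of 5% of the genes lay below -0.44 and of another 5% above 0.24, so falls reached further from the median than rises. Without the 225 min value, 1504 fell and 1477 rose.

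The zero of this scale is set by the table's own normalization. The summed FPKM of the control conditions was 562848, 537350, 686647 and 880304 at the 4 times, while the median of the 8056 genes was 19.1, 18.4, 18.0 and 17.9. When the values were rescaled so that the cytosolic ribosomal protein genes stayed level, the median slope of all genes tested moved to -0.22, and 6879 of the 8056 genes fell and 15 rose. Below, "rose" and "fell" refer to the scale of the table as deposited. By the authors' own confidence limits, 1229 genes had an upper limit at 225 min under the lower limit at 0 min (18.0% of all genes tested did), and 1221 of these are among those that fell. Limits that separated upwards were found for 375 genes, against 3.32% of all genes tested, and 372 of these rose.

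The lowest slopes belonged to Nodal and Cyr61. Nodal, a TGF-β family ligand of early embryo patterning, was at 53.2, 45.6, 7.81 and 2.20 FPKM, a slope of -1.12 ± 0.095 (SE; adjusted p = 0.0012). The fall between 15 and 105 min is larger than that of any other interval, and 4.13% of the starting level was left at 225 min. Cyr61, a matricellular protein, went from 32.3 and 28.8 to 3.46 and 1.96 FPKM (slope -0.99 ± 0.16, adjusted p = 0.0052). Most of this drop had taken place by 105 min, when 10.7% was left.

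Slc38a2, an amino acid transporter, was the most abundant of the 15 genes with the lowest slopes, at 115, 107, 31.4 and 13.0 FPKM (slope -0.84 ± 0.062). Sgk1, a serum- and glucocorticoid-induced kinase, stood at 53.4, 43.8, 10.4 and 4.82 FPKM (slope -0.88 ± 0.094). Irf1, an interferon-regulatory transcription factor, stood at 33.4, 33.1, 4.62 and 2.94 FPKM (slope -0.90 ± 0.155). In each of these 3 genes the 2 later times lay below both early ones, and the authors' limits at 0 and 225 min did not overlap. Cell cycle regulators were also among the 15 genes. Wee1, the kinase that holds Cdk1 inactive, was at 21.6, 22.1, 4.40 and 1.55 FPKM (slope -0.89 ± 0.090). Fbxo5, the inhibitor of the anaphase-promoting complex, was at 52.0, 47.3, 10.6 and 5.71 FPKM (slope -0.83 ± 0.11). Cxcr4, the chemokine receptor, fell from 13.8 and 13.0 to 1.15 and 0.905 FPKM.

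**Figure D1:**
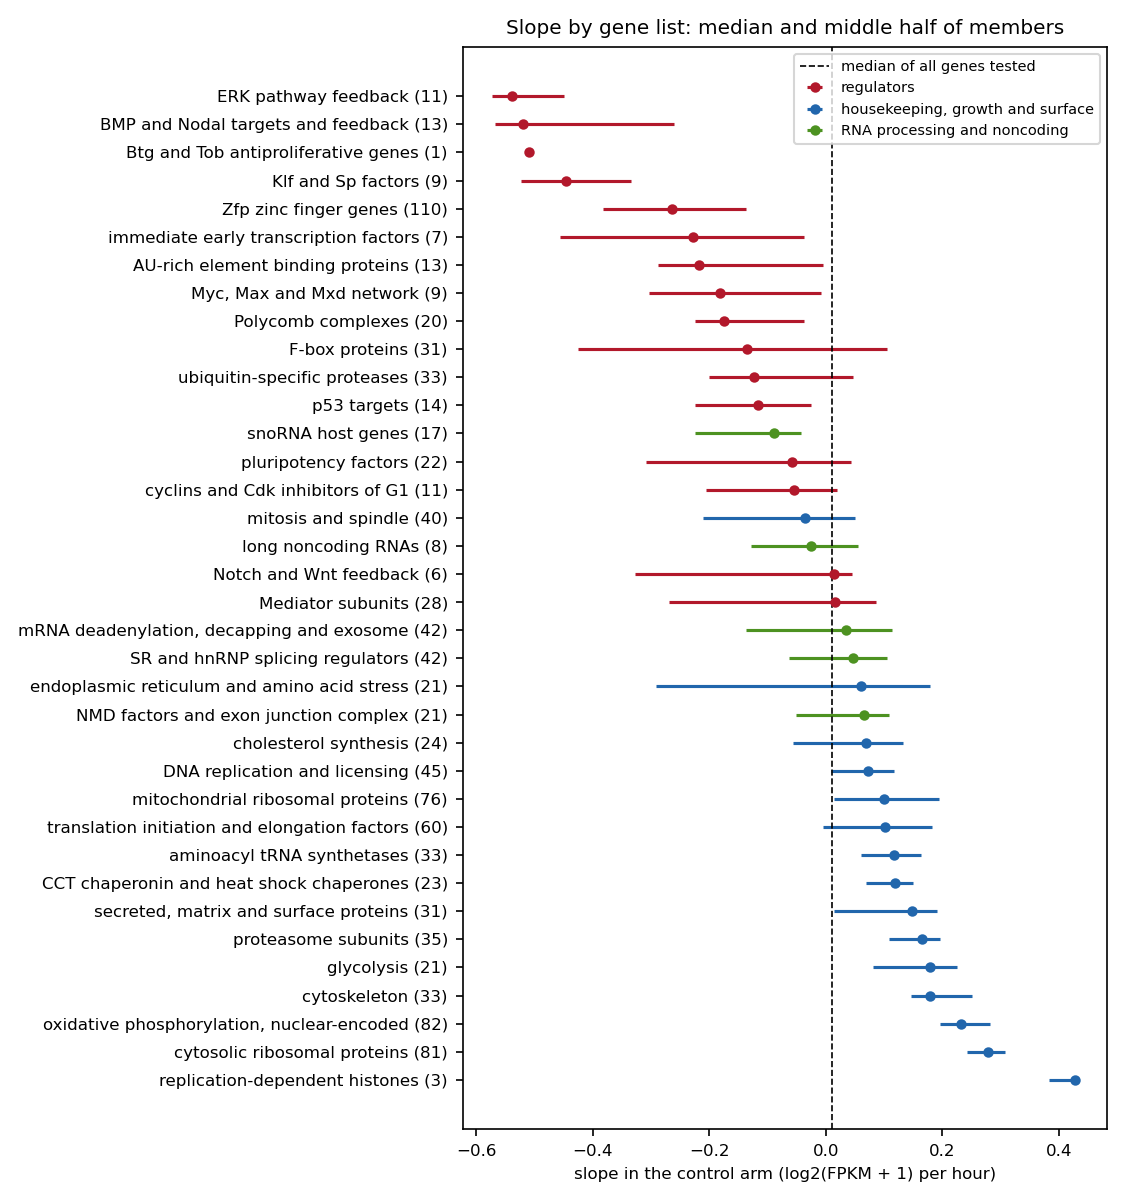
Slope of each gene list in the control arm, in log2(FPKM + 1) per hour: points are list medians, bars the interquartile range over members, and the number of members stands in brackets. Lists run from ERK pathway feedback at -0.54 to cytosolic ribosomal proteins at 0.28 and 3 histone genes at 0.43. Of these histone genes, Hist1h3c and Hist1h4d reached the limit of 5 FPKM only through their later values. The dashed line is the median of all genes tested. Under quantile normalization the ribosomal, proteasome, glycolysis, chaperone, translation and 9 other lists lie on the other side of that median. Under ribosomal rescaling 4 lists near it do so.

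Grouped by function, 36 gene lists covering 1066 of the genes spread along this scale as the plot of list medians shows. In the lists of regulators, 207 of 333 genes fell and 45 rose (median slope -0.20). In the lists for growth, metabolism and structure, 57 of 607 fell and 418 rose (median 0.15). The 6990 genes in no list had a median of 0.04, with 1969 falling and 2768 rising. These lists were assembled with earlier results of these data known. Of the genes named here, Scand1, Rplp2, Sp2, Sp3, Klf13, Casc3 and Snhg7 share a locus with another gene, so that their values are less certain.

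Feedback inhibitors of signalling stood lowest. Of 11 ERK pathway feedback genes 10 fell and 1 rose (median slope -0.54, 22.6% left at 225 min). Dusp1, a nuclear MAP kinase phosphatase, was at 21.4, 20.2, 2.89 and 1.66 FPKM (slope -0.87 ± 0.14). Dusp6, the cytoplasmic ERK phosphatase, was at 28.3, 24.9, 4.15 and 2.90 FPKM (slope -0.82 ± 0.15). Spred1 and Spred2, which restrain Ras-to-Raf signalling, fell more evenly, with slopes of -0.49 and -0.57 and 23.7% and 20.7% left at 225 min.

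Of 13 targets and feedback genes of the BMP and Nodal pathways 12 fell and 1 did not pass (median -0.52). Besides Nodal these included Id2, a dominant-negative helix-loop-helix factor, at 35.5, 33.2, 13.5 and 4.65 FPKM. Its slope was -0.73 ± 0.028, and its rates before and after 105 min differed by 0.08 per hour. Lefty1, the secreted Nodal antagonist, was at 70.2, 78.0, 41.5 and 14.2 FPKM. On the log2 scale its change was larger after 105 min (-1.49) than between 15 and 105 min (-0.89). Tgif1, a repressor of Smad-driven transcription, went from 59.0 to 13.5 FPKM. Tob2, the only antiproliferative Btg and Tob gene expressed at this level, went from 8.91 to 1.98 FPKM with nearly all of the loss before 105 min.

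Transcription factors followed. All 9 Klf and Sp factors fell (median -0.45), among them Sp2 from 20.7 to 4.86, Sp3 from 29.0 to 7.83 and Klf13 from 10.2 to 2.80 FPKM. Of 110 Zfp zinc finger genes 84 fell, 10 rose and 16 did not pass (median -0.26), with 48.5% left at 225 min. These genes carry few introns for their coding length: their median was 2.20 exon junctions per kilobase, against 8.77 in the ribosomal protein genes. Of 23 immediate early genes only 7 were expressed at this level, and 4 of them fell. Ier2 went from 38.5 and 38.5 to 11.03 and 10.02 FPKM, level after 105 min, and Nr4a1, a nuclear receptor, from 8.91 to 2.96 FPKM.

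In the Myc, Max and Mxd network 5 of 9 fell and 2 rose. Mycn, the Myc gene prominent in embryonal cells, was at 30.4, 29.1, 9.75 and 3.50 FPKM (slope -0.77 ± 0.044, adjusted p = 8.9e-04). Its partner Max, which is needed by all Myc proteins for DNA binding, fell less steeply, from 28.3 to 17.1 FPKM (slope -0.18 ± 0.026). Mga, another Max partner, lay between them at -0.42. Of 20 Polycomb genes 12 fell and 1 rose (median -0.18), with Eed, a core subunit of the histone H3 lysine methyltransferase complex, at -0.36 and Cbx2, a reader of that mark, at -0.33.

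Of 13 genes for proteins that bind AU-rich or Pumilio elements 8 fell, none rose and 5 did not pass (median -0.22). Pum2, a Pumilio protein, was at 47.6, 45.3, 23.4 and 10.1 FPKM. Its slope was -0.58, and its 3′ UTR holds 2 Pumilio-type octamers. Zfp36l1, a tristetraprolin family protein that promotes decay of AU-rich messages, fell from 21.6 to 12.2 FPKM, and its own 3′ UTR holds 3 of the heptamers. In the deadenylation, decapping and exosome machinery 11 of 42 fell and 13 rose, against 28.0% and 40.6% of all 8056 genes. Here Cnot2, a scaffold of the CCR4-NOT deadenylase, fell from 37.3 to 13.3 FPKM, and Lsm4, of the ring that binds deadenylated ends, rose from 134 to 327 FPKM. Of 21 nonsense-mediated decay and exon junction genes 4 fell and 9 rose; Casc3, an exon junction core protein, had a slope of -0.21. The medians of the decay machinery (0.03) and of the nonsense-mediated decay genes (0.07) lie above that of all genes tested as deposited and below it after quantile normalization, and the first also lies below it after the ribosomal rescaling.

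Of 22 genes of the pluripotency network 8 fell, 4 rose and 10 did not pass (median -0.06). Of all 8056 genes 28.0% fell and 40.6% rose, so courses in both directions are not particular to this list. Sall4, a zinc finger factor of pluripotent cells, fell from 46.3 to 17.03 FPKM (slope -0.39 ± 0.043). Sox2, the partner of Oct4 on DNA, chosen after its values were seen, fell from 58.3 and 69.7 to 19.4 and 12.6 FPKM (slope -0.64 ± 0.096). Pou5f1 moved the other way, with a slope of 0.26 ± 0.029 (adjusted p = 0.0019); its level at 225 min was 187% of the start, although the slope was -0.015 after the ribosomal rescaling. Dppa5a, an RNA-binding protein of pluripotent cells, rose from 11.2 to 22.6 FPKM.

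Cell cycle genes also went in both directions, as did all 8056 genes (28.0% fell and 40.6% rose). In the list of mitosis and spindle genes 16 of 40 fell and 7 rose, with Ect2, an exchange factor of cytokinesis, at -0.34 and Ttk, a checkpoint kinase, at -0.35. In DNA replication and licensing 7 of 45 fell and 22 rose (median 0.07, which lies below the median of all genes after quantile normalization). Those that fell included 3 licensing factors: Cdt1 was at 45.9, 51.3, 24.7 and 9.57 FPKM (slope -0.61), Cdc6 went from 25.1 to 9.67 FPKM and Orc1 from 18.7 to 5.98 FPKM. Of 31 F-box genes 16 fell and 9 rose, and of 33 ubiquitin-specific proteases 17 fell and 6 rose. Usp1, which removes ubiquitin from DNA repair proteins, fell from 20.05 to 4.70 FPKM. Of 14 p53 targets 8 fell and 2 rose, among the first Trp53inp1 at -0.45 and Ppm1d, the phosphatase that turns the p53 response off, at -0.65.

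In the endoplasmic reticulum and amino acid stress list 6 of 21 fell and 10 rose, against 28.0% and 40.6% of all 8056 genes. Xbp1, the transcription factor spliced by Ire1, was at 48.7, 49.2, 24.1 and 8.38 FPKM (slope -0.66 ± 0.032). Atf4, the factor induced when amino acids are short, fell from 115 to 50.7 FPKM (slope -0.29). Among 24 cholesterol synthesis genes 3 fell and 11 rose. Of 23 chaperones 2 fell and 16 rose (median 0.12, below that of all genes after quantile normalization, as are those of the stress and cholesterol lists), with Dnajb1, an Hsp70 co-chaperone, at -0.54. In Mediator 10 of 28 fell and 7 rose, and Med18, a head subunit, went from 12.6 and 11.4 to 1.69 and 0.936 FPKM (slope -0.79).

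Of 81 cytosolic ribosomal protein genes 80 rose and 1 did not pass (median slope 0.28, 197% of the start at 225 min). Rpl36 was at 2771, 2762, 4552 and 7686 FPKM (slope 0.41 ± 0.027, adjusted p = 9.3e-04), higher at both late times than at either early one. Rplp2, of the ribosomal stalk, was at 3017, 3218, 5024 and 8161 FPKM (slope 0.39). The gene that did not pass was Rps27, at 9.80, 7.89, 7.60 and 11.2 FPKM, named after its values were seen. After quantile normalization the ribosomal median lay 0.02 below that of all genes, and with ribosomal rescaling it is level by construction. Ribosomal protein genes have many near-identical processed copies in the genome, between which reads may be divided.

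Of 82 nuclear-encoded oxidative phosphorylation genes 78 rose and 1 fell (median 0.23). Cox8a, a small cytochrome oxidase subunit, was at 476, 657, 846 and 1507 FPKM (slope 0.40 ± 0.045), and Ndufa1, of complex I, at 102, 104, 153 and 241 FPKM (slope 0.34 ± 0.024). Of 33 cytoskeleton genes 30 rose and none fell, and of 35 proteasome genes 29 rose and none fell. Of 21 glycolysis genes 16 rose and 1 fell, and the medians of this list (0.18) and of the proteasome list (0.17) lie below that of all genes tested after quantile normalization. Gapdh, a glycolytic enzyme, went from 4349 to 8447 FPKM (slope 0.26, but -0.012 after quantile normalization and -0.014 after ribosomal rescaling). Eef1a1, the elongation factor that brings transfer RNA to the ribosome, was at 6694, 6549, 8920 and 11409 FPKM; its slope of 0.22 became -0.041 and -0.059 under those same settings. Mitochondrial ribosomal proteins were looser, with 41 of 76 rising and 8 falling, among the latter Mrps2 at -0.34.

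Transcripts of other kinds also had high slopes. Rn45s, the ribosomal RNA precursor and a multicopy gene of uncertain value, rose from 729 and 793 to 1576 and 1958 FPKM. In the knockdown arm it was at 688, 2552, 1823 and 1989 FPKM, and its slope of 0.19 did not pass (adjusted p = 0.44). Lars2, the mitochondrial leucyl-tRNA synthetase, rose from 131 and 132 to 247 and 355 FPKM in control cells (slope 0.40). With the Upf3a siRNA Lars2 was at 131, 349, 267 and 357 FPKM, so the arms differed mainly at 15 min. Its slope of 0.22 there did not pass (limma, adjusted p = 0.25), nor did the difference of slopes between arms. Only 3 of 66 replication-dependent histone genes reached the limit, and all 3 rose. Hist1h3c was at 3.31, 9.81, 9.90 and 18.6 FPKM, and Hist1h4d at 3.58, 10.2, 9.54 and 19.4 FPKM. Both started under 5 FPKM and reached the limit through their later values, so the limit itself favoured rising courses here. Replication-dependent histone messages lack a poly(A) tail, and no label says how RNA was selected for the libraries. Scand1, a SCAN-domain protein, had the highest slope among genes with ordinary symbols, at 8.57, 26.9, 23.2 and 61.0 FPKM. Its slope was 0.54 ± 0.15 (limma, adjusted p = 0.026). Its start is known only loosely, with authors' limits of 0 to 18.3 FPKM at 0 min and 39.4 to 82.5 FPKM at 225 min. In the knockdown arm Scand1 was at 15.1, 17.8, 41.5 and 78.7 FPKM, so its 15 min value differed between arms while both ended high. The 40 genes for small RNAs are not named, since 18 of them have a slope of -0.5 or less and 9 a slope of 0.5 or more.

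**Figure D2:**
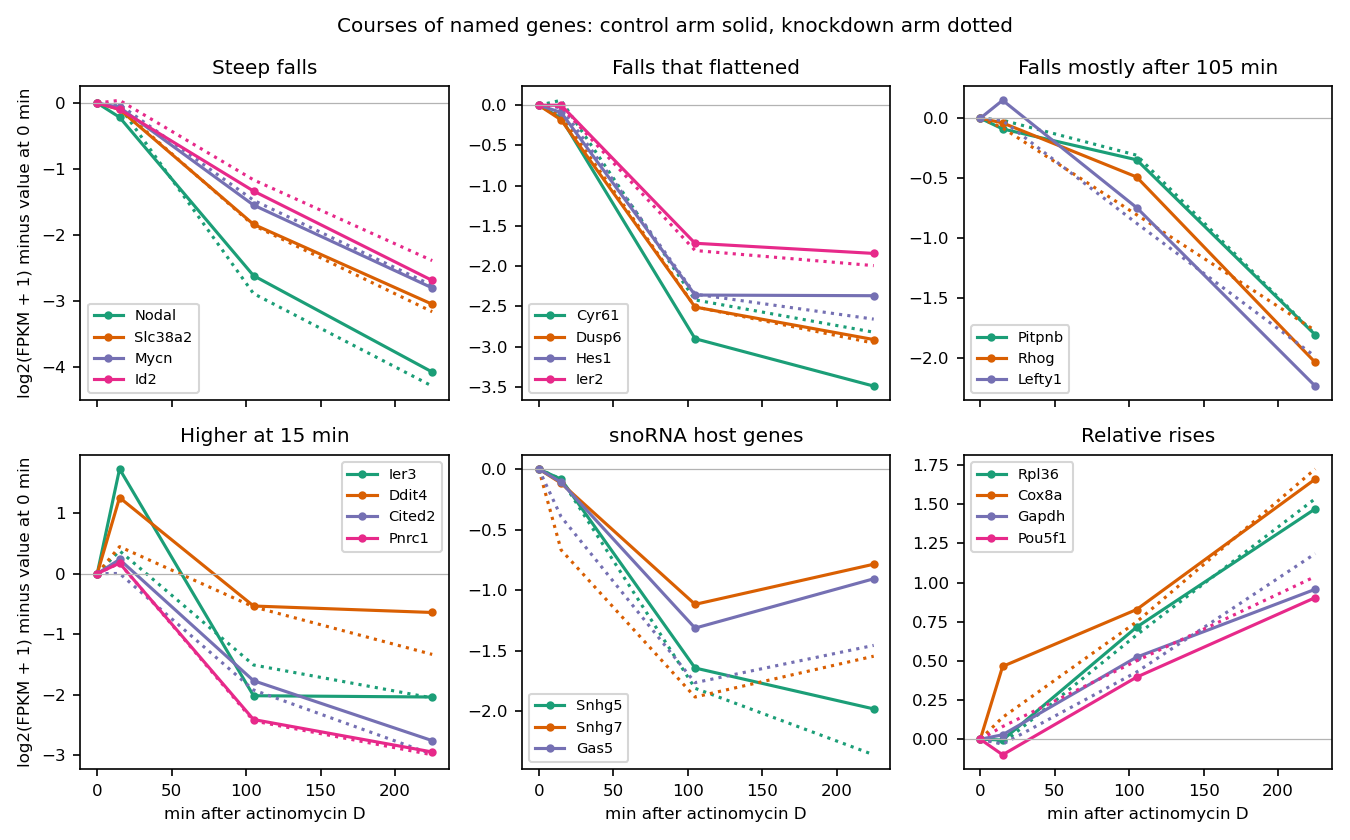
Courses of 22 named genes, as log2(FPKM + 1) minus the value at 0 min, against minutes after actinomycin D; solid lines with points are the control arm, dotted lines the knockdown arm. Nodal ends about 4 log2 units below its start, Hes1 and Ier2 are level after 105 min, Pitpnb and Rhog lose most after 105 min, and the 4 genes of the last panel rise as deposited (the slopes of Gapdh and Pou5f1 are just below 0 under ribosomal rescaling, as is that of Gapdh under quantile normalization).

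The shape of the loss was examined over the 3 intervals. Among the genes that fell, the median change in log2(FPKM + 1) was -0.05 in the first 15 min, -0.39 in the next 90 min and -0.45 in the last 120 min. The median share of the starting FPKM, without the added 1, was 72.0% at 105 min and 48.5% at 225 min. In the 250 genes with a slope of -0.5 or less, the median changes were -0.06, -1.24 and -0.81. For these 250 genes the median shares of the starting FPKM were 36.7% and 18.5%. Their median rate was -0.74 per hour up to 105 min and -0.40 per hour after it. The commonest order of signs over all genes was down, up, up (2789 genes, 34.6%), followed by 3 decreases (1677, of which 1532 fell) and 3 increases (1300).

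A bend was counted where the rate after 105 min differed from the rate before it by 0.3 per hour or more. Flattening courses numbered 441, of which 348 fell, and 312 of the 441 also flattened in the knockdown arm. Of the 250 genes with a slope of -0.5 or less, 133 flattened, and 117 did so in both arms. Hes1, a Notch target and repressor, was at 15.3, 14.3, 2.17 and 2.15 FPKM, with no further loss after 105 min. The added 1 FPKM compresses log2 differences at such low levels; 14.1% of the start was left at 225 min.

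Courses that bent downwards late numbered 93, and 17 of these did so in both arms. Pitpnb, a phosphatidylinositol transfer protein, was at 47.7, 44.8, 37.3 and 12.9 FPKM, with 78.2% left at 105 min and 27.2% at 225 min. Rhog, a small GTPase, bent late in the control arm (23.9, 23.2, 16.7 and 5.08 FPKM) but was nearly straight in the other. The count of late bends depends on the added value, as given in the closing section.

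Host genes of small nucleolar RNAs, whose introns carry the guides of ribosomal RNA modification, mostly flattened. Of 17 such genes 14 flattened by the measure above, against 441 of all 8056, and 14 were lowest at 105 min, against 410 of all; in the knockdown arm 12 of 17 flattened. The median change was -0.49 between 15 and 105 min and then 0.33 between 105 and 225 min. Snhg5 was at 39.0, 36.8, 11.8 and 9.14 FPKM and was 1 of 2 that fell by the straight-line test. Snhg7 was at 15.8, 14.5, 6.73 and 8.73 FPKM. Gas5, a host whose spliced RNA is a textbook substrate of nonsense-mediated decay, was at 18.4, 17.02, 6.82 and 9.37 FPKM in control cells and at 21.7, 16.3, 5.69 and 7.28 FPKM in knockdown cells; it was named after its values were seen. A line describes such courses poorly, and 13 of the 17 did not pass. The median change from 105 to 225 min in the knockdown arm was 0.10.

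At 15 min 2613 of the 8056 genes were above their 0 min value in the control arm and 4221 in the knockdown arm. Ier3 and Ddit4 were among those with the largest early increases. Ier3, an early-response gene, was at 7.88, 28.4, 1.2 and 1.17 FPKM in control cells and at 5.13, 6.96, 1.16 and 0.480 FPKM in knockdown cells. Ddit4, an inhibitor of mTORC1, was at 20.6, 50.5, 13.9 and 12.8 FPKM in control cells and at 20.02, 27.6, 13.4 and 7.35 FPKM in knockdown cells; its slope of -0.35 did not pass (adjusted p = 0.10). Both genes were higher at 15 min in both arms, at 360% (control) and 136% (knockdown) of the start for Ier3 and at 245% and 138% for Ddit4. Over all 8056 genes, small RNAs included, the changes from 0 to 15 min correlated between arms at r = -0.30. This value was not computed without the small RNAs, so a few of them may weigh on it.

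**Figure D3:**
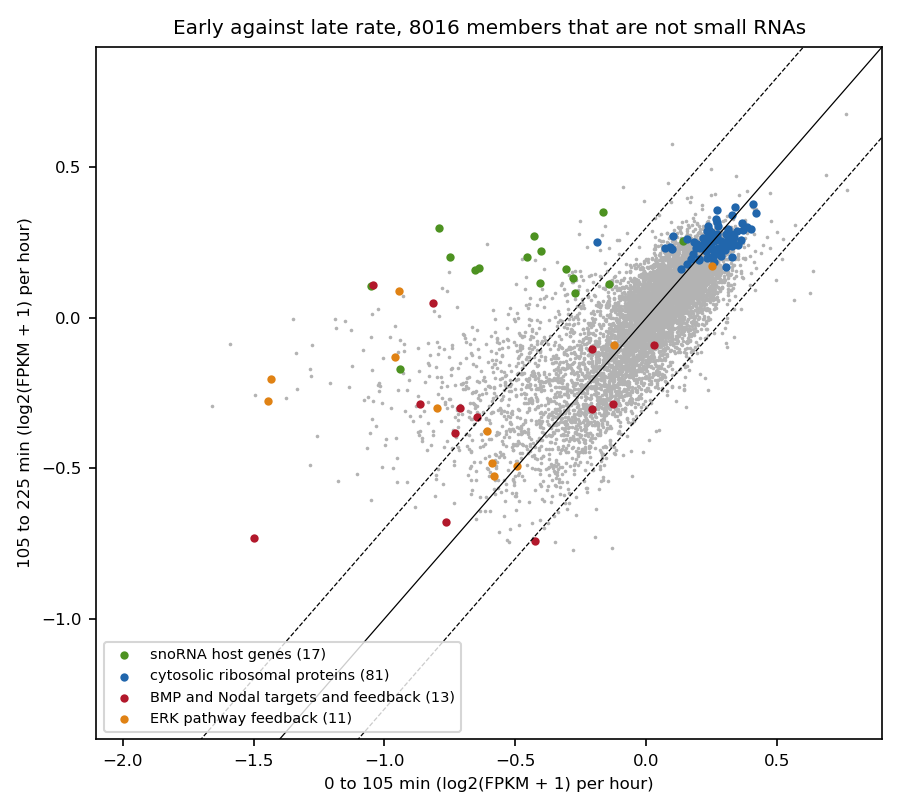
Rate of change from 0 to 105 min against rate from 105 to 225 min, in log2(FPKM + 1) per hour, for 8016 genes that are not small RNAs (1 lies outside the axes); the solid line marks equal rates and the dashed lines a difference of 0.3 per hour. Most host genes of small nucleolar RNAs lie above the upper dashed line, and nearly all ribosomal protein genes lie on the line of equal rates.

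The knockdown arm gives the only second run of the course. Slopes in the 2 arms correlated across the 8016 genes that are not small RNAs at r = 0.98, a description in which both arms share gene lengths and the same processing. Of 2258 genes that fell in control cells 2254 had a slope below 0 in the knockdown arm, and 2123 were also called there. Of 3272 that rose, 3268 had a slope above 0 and 3105 were called. The difference of slopes between arms passed for 1 of 11453 genes, the small RNA Mir3096 (named after its values were seen), while 760 had an unadjusted p below 0.05 (limma). This test rests on 1 value per arm and time, and its power was not measured. So few calls therefore do not show that the slopes were equal. The median absolute difference was 0.03 per hour. Over all 8056 genes, small RNAs included, slopes correlated at r = 0.90 and curvature at r = 0.28.

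**Figure D4:**
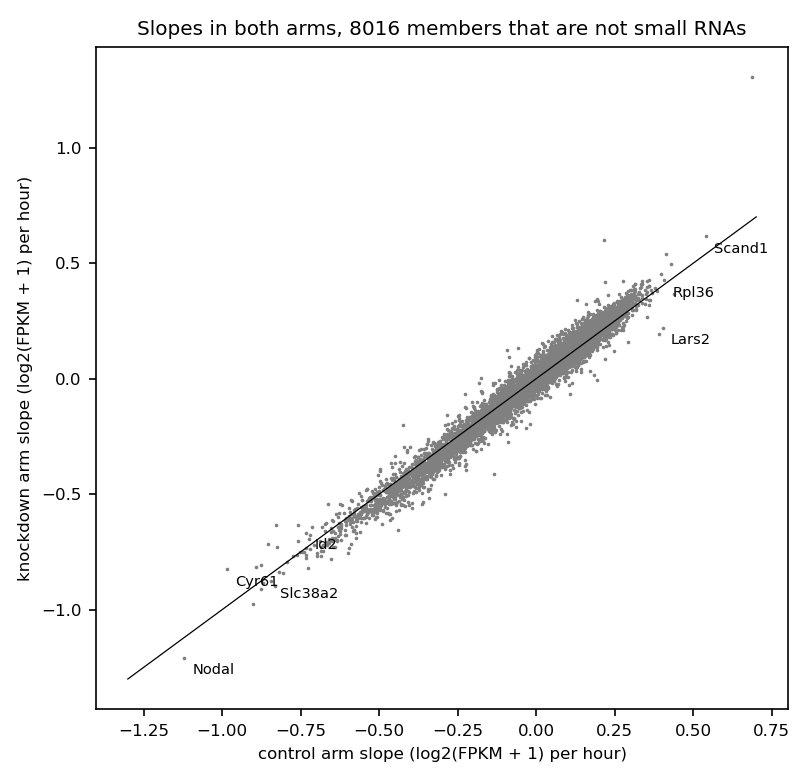
Slope in the control arm against slope in the knockdown arm, in log2(FPKM + 1) per hour, for 8016 genes that are not small RNAs; the line marks equal slopes. The points follow the line from Nodal at -1.12 and -1.21 to Scand1 at 0.54 and 0.62. Lars2 lies below the line at 0.40 and 0.22, with 15 min values of 132 and 349 FPKM.

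Transcript features were read from 1 annotated transcript per gene (GENCODE vM21 on GRCm38) for 7807 of the 8056 genes. With 0, 1, 2, 3 and 4 or more TATTTAT heptamers in the 3′ UTR, the median slope was 0.07, -0.01, -0.06, -0.09 and -0.14, and 23.2%, 37.4%, 46.9%, 51.0% and 61.8% of genes fell. The heptamer was present in 42.5% of 226 genes with a slope of -0.5 or less and in 5.90% of 288 with 0.25 or more. Both sets were taken by slope alone, called or not, and the share among the 7807 was 27.1%. Long 3′ UTRs hold more of any short word, so the genes were also divided into 3 equal groups by 3′ UTR length. Genes with at least 1 heptamer had the lower median in each group: 0.07 against 0.12, 0.00 against 0.06 and -0.07 against -0.00. Within each group their 3′ UTRs were still longer, with medians of 365 against 256, 1040 against 929 and 2879 against 2347 bases. Of the genes shown above, Ier3 holds 4 heptamers, Dusp1 holds 3 and Nodal 1, so the number did not order the steepest falls.

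The Pumilio-type octamer TGTANATA gave a steeper gradient. With 0, 1, 2 and 3 or more in the 3′ UTR (sense strand), median slopes were 0.08, -0.03, -0.13 and -0.22, and 68.8% of the last group fell. Over these groups the median 3′ UTR went from 741 to 3553 bases. The octamer was not examined within groups of equal length, so its part cannot be told apart from that of length. Slc38a2 holds 5 of them in a 3′ UTR of 2735 bases. Longer transcripts had lower slopes, from a median of 0.16 in the shortest 20% to -0.07 in the longest (Spearman's rho -0.45 over 7807 genes). The ribosomal protein and oxidative phosphorylation genes, with median transcripts of 860 and 892 bases, belong with the shortest 20%, whose median of 0.16 is below their 0.28 and 0.23; how much of their position goes with length was not tested.

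Exon junctions per kilobase of coding sequence ran with stability. From the 20% of genes with fewest to the 20% with most, median slopes were -0.17, 0.01, 0.06, 0.09 and 0.12, and the share that fell went from 60.6% to 9.60%. The rank correlation was 0.43 over 7807 genes, and 0.44 over the 6478 with transcripts of 1500 bases or more, where that of length was -0.31. The share of G or C at the third codon position had a rho of 0.28, and mean FPKM one of 0.48. Mean FPKM is taken over the same control values as the slope, and late rises raise it. Part of its rho may therefore be built in, and how much was not tested. The transcript features overlap with each other and with expression level, genes are not independent replicates, and no p-value is given.

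**Figure D5:**
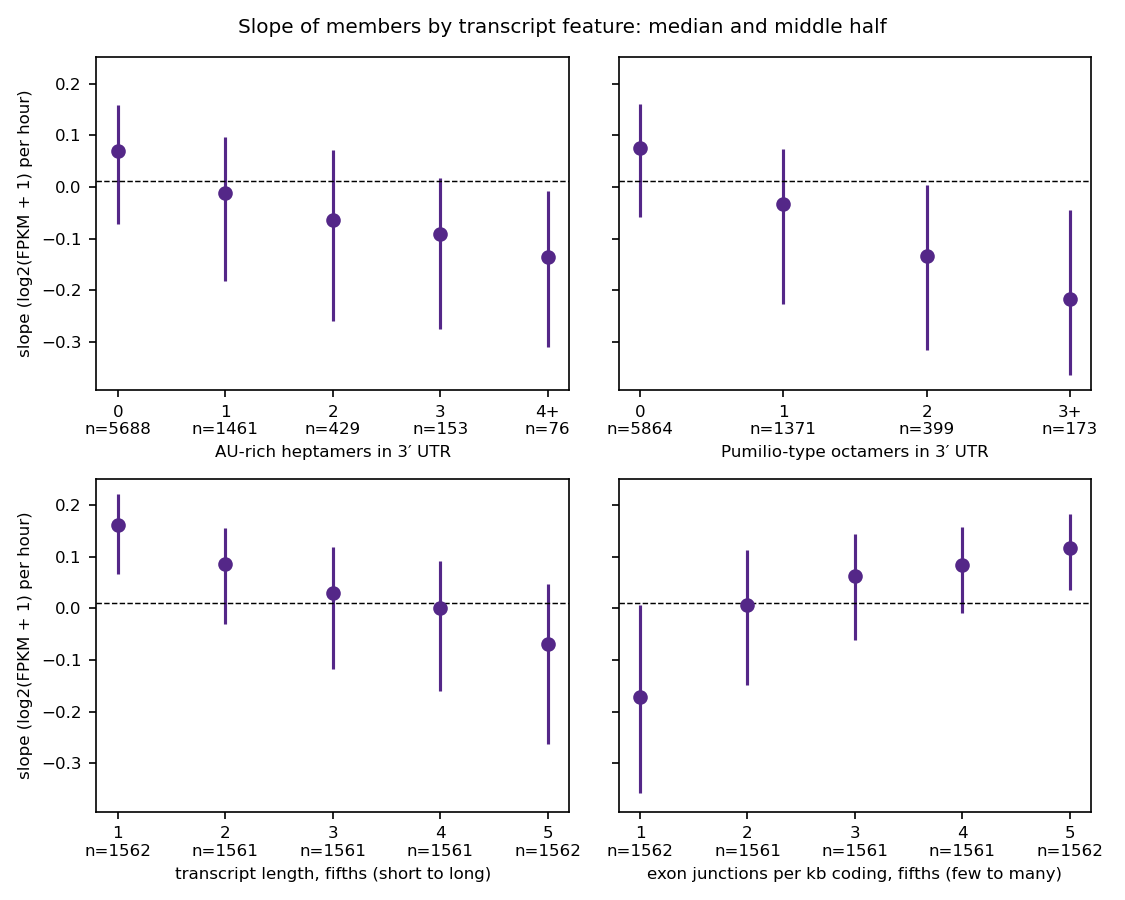
Slope in log2(FPKM + 1) per hour by transcript feature in 7807 genes: points are medians, bars interquartile ranges, n the genes in each bin, and the dashed line the median of all genes tested. Medians go down with the number of AU-rich heptamers (0.07 to -0.14), Pumilio-type octamers (0.08 to -0.22) and transcript length (0.16 to -0.07), and up with exon junction density (-0.17 to 0.12).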

How the data were processed

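RNA of P19 cells was sequenced, aligned with TopHat2 to mm10 and quantified with Cufflinks, per the submitters' processing notes; versions and annotation are not given in the sources used here. The deposited values are FPKM with lower and upper confidence limits, 1 per gene and condition, in which the authors had combined the 2 cultures; how is not stated. Read depth is unknown: low values showed no whole-read steps. Precision is therefore known only from the authors' limits, with an upper limit about 30% above the value at the median.

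limma 3.58.1 in R 4.3.3 (lmFit, eBayes) was fitted to log2(FPKM + 1) on hours in the 4 control conditions, with 2 residual degrees of freedom, for 11453 genes with a mean of 1 FPKM or more. In simulated data for these genes 84% of slopes of 0.5 and 39% of slopes of 0.2 were recovered. The simulated courses were straight, and only a small part of the genes was given a slope. In the data 32.6% of genes tested fell and 33.3% rose, and some courses bend, so these rates may not hold there. Genes were named by rule: the 15 lowest and 15 highest slopes among called genes with ordinary symbols, up to 4 per list by moderated statistic, 6 each of the strongest bends and 15 min changes, and the 6 highest means; the text describes a selection of these, and exceptions are marked. Members and lists were chosen with earlier results of these data known. Of the 8056 genes, 1464 share a locus with another gene and their reads may be divided. A few results are not reported here. Alternatives covered the added value, filters, scaling, variance model, times, arms and call rule.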

Additional observations from a re-analysis of the deposited data

How the results depend on the processing

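The counts of genes that fell and rose (2258 and 3272) stayed within 1.5 times under 12 settings each and moved under 4. They were 1147 and 1530 with no filter on low values, where more genes were tested. They were 6879 and 15 after rescaling to ribosomal protein genes, 1504 and 1477 without 225 min, and 1229 and 375 by the authors' limits. Late bends numbered 93 with 1 FPKM added, 146 with 0.1 and 32 with 5; the cause was not tested. Slopes reversed for Pou5f1 (-0.015), Eef1a1 (-0.059) and Gapdh (-0.014) after the ribosomal rescaling, and for Eef1a1 (-0.041) and Gapdh (-0.012) after quantile normalization. Relative to the median of all genes, 14 of 36 list medians changed side under quantile normalization, 4 under ribosomal rescaling, and 2 (Mediator; Notch and Wnt feedback) without 0 min or without 15 min. Leaving out small RNAs, added after the data were seen, moved neither count by 1.5 times. No paired analysis was possible because cultures have no values of their own in the table; the arms were matched by time in the test of slope differences. Depth is unknown, so low values carry no counting interval.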
